A study of Nicotiana tabacum with 9 samples.

Results

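Genes that decorate small molecules with sugars or acyl groups were followed in tobacco leaves across 3 light intensities. They are the 6 genes of the deposited table whose Swiss-Prot match text contains UDP-glycosyltransferase, glucosyltransferase or anthocyanin 5-aromatic acyltransferase, out of 123 genes in all. By this match, 2 are anthocyanidin 3-O-glucosyltransferases, 1 is an anthocyanin 5-aromatic acyltransferase, 1 is UDP-glycosyltransferase 86A1 and 2 are UDP-glycosyltransferase 74E2. The leaves came from seedlings of the cigar variety H382 of Nicotiana tabacum kept at a light intensity of 50, 100 or 200 µmol m-2 s-1, called light 50, light 100 and light 200 from here, with 3 biological replicates at each intensity and 9 libraries in all. All groups share the variety, the tissue and the stage, and neither an age in days nor the duration of the light treatment is stated in the labels.

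UDP-sugar glycosyltransferases move a sugar from a UDP-sugar donor onto flavonoids, hormones and other small molecules, which makes the product more soluble and allows storage in the vacuole. In the anthocyanin branch of flavonoid synthesis, glucosylation of the unstable anthocyanidin gives the first stable coloured product. Further sugars follow, and acyltransferases of the BAHD family can then add aromatic or malonyl groups to those sugars. Flavonoids and anthocyanins are known in leaves as screens against strong light and ultraviolet radiation.

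The table bounds what can be read from these genes. The authors' deposited table marks 122 of its 123 genes as changed between light 50 and light 200. The genes had thus been chosen on these same samples, and no call between these 2 groups is independent evidence of a change. Tests that include light 100 also use libraries of light 50, light 200 or both, so their calls are not independent of this choice. Adjustment over the 123 genes does not correct for it. Library totals lay between 12395758 and 16603534 reads, and the 6 genes had between 8 and 8600 reads in a library. Levels are given as CPM, read counts scaled to a common effective library size, and p-values come from the quasi-likelihood test of edgeR, adjusted by Benjamini-Hochberg over the 123 genes and called under 0.05. The library kit named in the labels does not mark strand. Tobacco is an allotetraploid, and a read shared by near-identical copies has no certain home, so values of paired copies are uncertain to that degree. In whole leaves, more cells of a type and more RNA per cell cannot be told apart.

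The Swiss-Prot text is a best match, and for 2 of the genes the annotations differ among themselves on the transferred group. The first anthocyanidin 3-O-glucosyltransferase (Nitab4.5_0000403g0080, Nt19, 35855585 to 35857000, plus strand) was matched to a Petunia hybrida protein with the gene symbol RT, a symbol known in petunia for the enzyme that adds rhamnose to anthocyanidin glucosides. The second (Nitab4.5_0001043g0030, Nt05, 77278642 to 77279973, plus strand) was matched to the eggplant protein GT. The acyltransferase (Nitab4.5_0001256g0060, Nt23, 109984197 to 109985555, plus strand) was matched to a Gentiana triflora enzyme known for placing hydroxycinnamoyl groups on an anthocyanin glucoside, with an E-value of 4.97e-122, while the KEGG text of the same row names a malonyltransferase. The sugar or acyl group these tobacco proteins transfer was not measured here, and the names used below are those of the best match.

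The other 3 genes matched Arabidopsis proteins. UDP-glycosyltransferase 86A1 (Nitab4.5_0003524g0010, Nt24, 28269879 to 28270736, minus strand) has a coding length of 858 bases, the shortest of the 6 gene models, against 1257 to 1416 bases for the others. One copy of UDP-glycosyltransferase 74E2, in Arabidopsis an enzyme that glucosylates the auxin indole-3-butyric acid, is Nitab4.5_0001704g0090 (Nt15, 6599579 to 6601445, minus strand), and the other is Nitab4.5_0002356g0020 (Nt20, 98250085 to 98252161, plus strand). These 2 genes are called copies only because they share this best match, and their relation to each other was not tested. Their gene models span 496 and 820 bases more than their coding length, whereas the span of each of the other 4 equals its coding length. The sources used here do not name the genome build of these coordinates.

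All 6 genes were higher at light 200 than at light 50. Their log2 changes lay between 1.28 and 4.97, with a median of 2.62 against -0.58 for all 123 genes. In the table, 47.2% of genes were called higher and 52% lower, and these are also the shares whose groups did not overlap with light 200 above or below. A rise as such is thus common among these genes. The authors' deposited table also marks all 6 as higher at light 200 than at light 50. UDP-glycosyltransferase 86A1 ranked first of the 123 genes by log2 rise, the Nt19 glucosyltransferase ranked 3, the Nt05 glucosyltransferase 5 and the acyltransferase 13, while the 74E2 copies ranked 28 and 29.

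All 6 genes were also called higher at light 100 than at light 50, against 42.3% of all genes called higher and 40.7% called lower, with a median log2 change of 1.80 against -0.18. The 2 groups did not overlap for any of the 6, against 39.8% of all genes with light 100 above and 43.1% with it below. Calls for the 74E2 copies depend on the adjustment, since the authors' deposited table, adjusted over more genes, gives an adjusted p of 0.0585 for the Nt15 copy and 0.0572 for the Nt20 copy. It marks 4 of the 6 as higher, against 23.6% of all genes.

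Between light 200 and light 100, 3 of the 6 were called higher, against 21.1% of all genes called higher and 39% called lower, with a median log2 change of 0.58 against -0.20. The called genes were both anthocyanidin glucosyltransferases and UDP-glycosyltransferase 86A1. The groups did not overlap for 3 of the 6, against 29.3% of all genes with light 200 above and 41.5% with it below, and these were both anthocyanidin glucosyltransferases and the Nt20 copy of 74E2. The authors' deposited table marks only the anthocyanidin glucosyltransferases, 2 of the 6, against 11.4% of all genes. The count of 3 was 5 with TMM factors, with RLE factors and with library totals only, while the count of all 123 genes called higher moved with it, at 43, 45 and 42 under these settings against 26. These comparisons share libraries with each other, so they are not separate evidence.

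**Figure D1:**
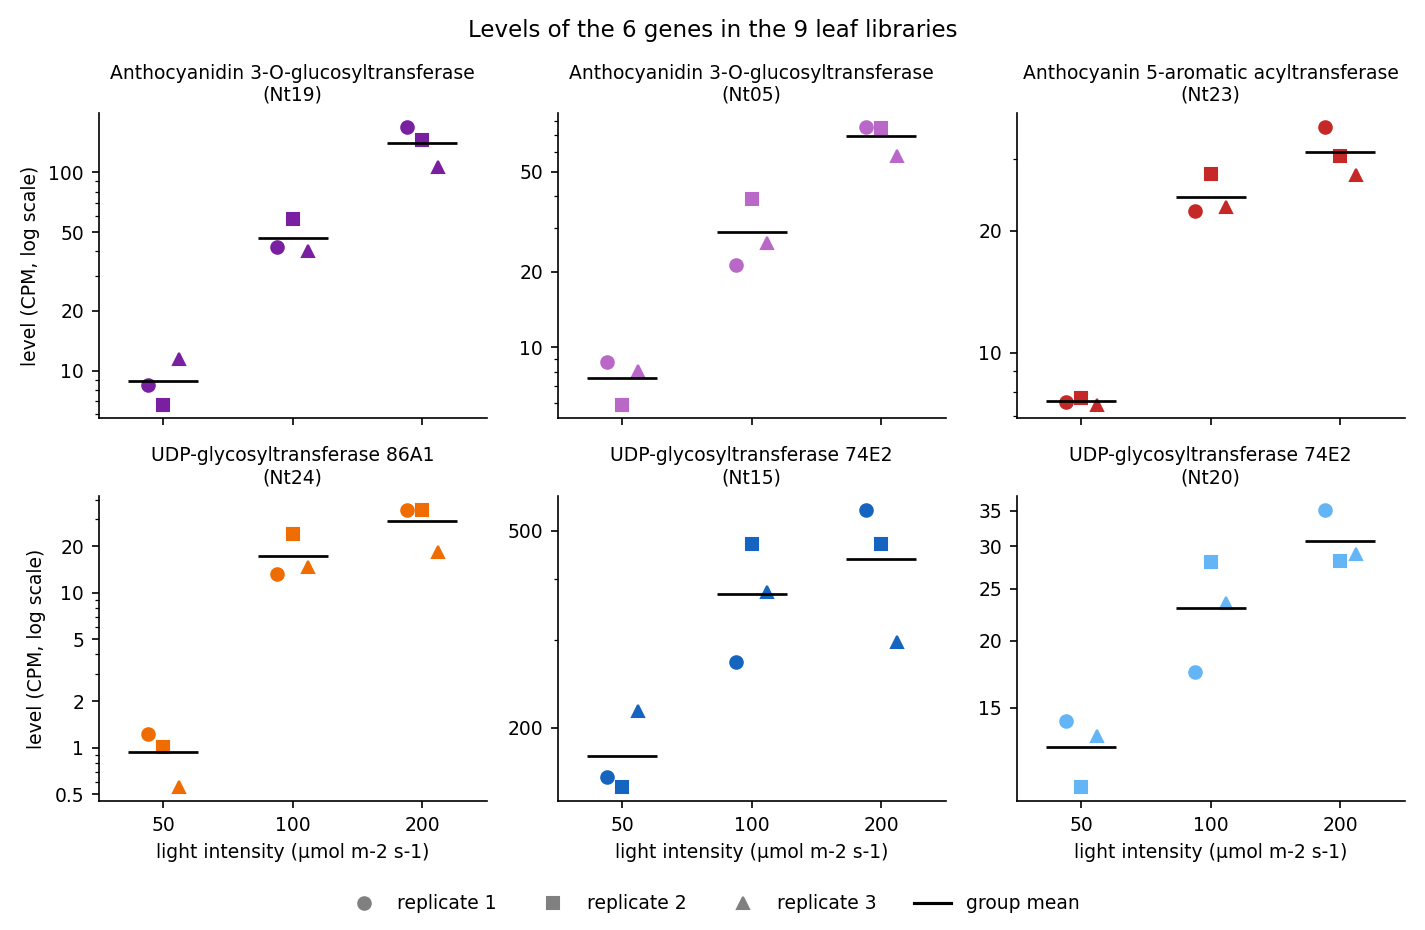
Level of each of the 6 genes in CPM (log scale) against light intensity, with 1 point per library and a bar at the mean of the 3 libraries. Light 50 lies below light 100 and light 200 in every panel, and light 100 and light 200 overlap for the acyltransferase, UDP-glycosyltransferase 86A1 and the Nt15 copy of 74E2.

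The 2 anthocyanidin glucosyltransferase genes rose over both doublings of light. The Nt19 gene had 8.45, 6.74 and 11.5 CPM in the light 50 libraries, 42.1, 58.1 and 40.2 CPM at light 100, and 169.7, 145.3 and 106.2 CPM at light 200. No library of one intensity reached the range of the next. Its level was 15.8-fold higher at light 200 than at light 50 (95% interval 10.7 to 23.3), a log2 change of 3.98 ± 0.26 (SE, adjusted p = 1.06e-07). The 2 steps were 2.40 ± 0.24 for light 100 against 50 (adjusted p = 7.66e-06) and 1.58 ± 0.23 for light 200 against 100 (adjusted p = 0.000425).

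The Nt05 gene followed the same order at lower levels. It had 8.71, 5.93 and 8.08 CPM at light 50, 21.4, 39.1 and 26.1 CPM at light 100, and 75.5, 74.9 and 57.8 CPM at light 200. Here too the groups did not overlap, and replicate 2 stood above the other light 100 libraries. The log2 change was 3.20 ± 0.25 for light 200 against 50 (9.18-fold, adjusted p = 2.66e-07), 1.93 ± 0.24 for light 100 against 50 and 1.27 ± 0.23 for light 200 against 100 (adjusted p = 0.0011).

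The anthocyanin acyltransferase rose in the first doubling, and its change in the second was not called. It had 7.57, 7.75 and 7.45 CPM at light 50, 22.3, 27.6 and 22.8 CPM at light 100, and 36.0, 30.5 and 27.4 CPM at light 200. The 3 light 50 libraries were close together, with an SD of 1.94% of their mean, and light 100 replicate 2 lay just above the lowest light 200 library. The gene was 3.19-fold higher at light 100 than at light 50 (log2 change 1.67 ± 0.17, adjusted p = 7.66e-06). Between light 200 and light 100 the log2 change was 0.37, with a 95% interval of 0.01 to 0.72 and an adjusted p of 0.0647. That second step was called with an adjusted p of 0.0109 under TMM, 0.00777 under RLE and 0.0227 under library totals. It was also called at 0.0445 when light 100 replicate 2 was left out and at 0.0419 when light 200 replicate 3 was.

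UDP-glycosyltransferase 86A1 had the fewest reads of the 6 genes at light 50 and many times more at the other intensities. It had 14, 15 and 8 reads at light 50, 199, 325 and 242 reads at light 100, and 533, 511 and 324 reads at light 200. In CPM these were 1.23, 1.01 and 0.552 at light 50, 13.3, 24 and 14.7 in the light 100 libraries, and 34.2, 34.5 and 18.5 at light 200. Light 50 stood apart from both other groups, while light 200 replicate 3 fell within the light 100 range. The level was 18.7-fold higher at light 100 than at light 50 (95% interval 10.5 to 33.4, log2 change 4.22 ± 0.38, adjusted p = 4.27e-06). It was 1.68-fold higher at light 200 than at light 100 (95% interval 1.09 to 2.60, adjusted p = 0.04). That second call was lost when replicate 1 or 3 of light 100 was left out, with adjusted p of 0.131 and 0.135, and when replicate 1 or 2 of light 200 was, with 0.131 and 0.128. The authors' deposited table does not mark this second step, with a p of 0.0574 and an adjusted p of 0.69. The intervals of this gene, which had 8 reads in its lowest library, are the widest of the 6.

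Between light 200 and light 50, and between light 100 and light 50, the 74E2 copies had the smallest rises of the 6. The Nt15 copy had 159.0, 151.4 and 215.8 CPM at light 50, 271.3, 470.5 and 376.5 CPM at light 100, and 551.2, 469.3 and 297.7 CPM at light 200. Light 200 replicate 3 was below 2 of the light 100 libraries, so these 2 groups overlapped. The log2 change was 1.32 ± 0.25 for light 200 against 50 (adjusted p = 0.000292), 1.09 ± 0.25 for light 100 against 50 (adjusted p = 0.00318) and 0.24 for light 200 against 100 (95% interval -0.30 to 0.78, adjusted p = 0.407). That last value moved between 0.04 and 0.45 when single libraries were left out.

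The Nt20 copy was far less abundant. It had 14.2, 10.6 and 13.3 CPM at light 50, 17.5, 28.0 and 23.5 CPM at light 100, and 35.1, 28.1 and 29.0 CPM at light 200. The lowest light 200 library was just above the highest light 100 library. The log2 change was 1.28 ± 0.20 for light 200 against 50 (adjusted p = 7.65e-05), 0.86 ± 0.20 for light 100 against 50 (adjusted p = 0.00343) and 0.42 for light 200 against 100 (95% interval -0.01 to 0.85, adjusted p = 0.0777). The second step was called at 0.0208 with TMM, 0.0119 with RLE, 0.034 with library totals and 0.0354 when light 100 replicate 2 was left out.

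The step difference is the second log2 change (light 200 against 100) minus the first (light 100 against 50). It was negative for all 6 genes and for 85 of all 123 genes, with a median of -0.83 against -0.17 for the whole table. A negative step difference as such was thus common in the table. It was called for 2 of the 6, UDP-glycosyltransferase 86A1 (-3.48 ± 0.55, adjusted p = 0.00426) and the acyltransferase (-1.31 ± 0.28, adjusted p = 0.0225). Of all 123 genes, 2.44% were called with a negative step difference. For the other 4 genes it lay between -0.85 and -0.44, with adjusted p from 0.359 to 0.576 and intervals that include 0. The acyltransferase call was lost with RLE factors, at an adjusted p of 0.0517. It was also lost when replicate 2 of light 50, 100 or 200 was left out, at 0.0569, 0.144 and 0.0822. The count of 3 genes over the whole table became 23 with TMM factors.

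Seen as a share of the log2 change between light 50 and light 200, the part reached by light 100 fell into a lower and a higher range. It was 60.2% and 60.4% for the Nt19 and Nt05 anthocyanidin glucosyltransferases and 67.3% for the Nt20 copy of 74E2. It was 82.0% for the acyltransferase, 82.1% for the Nt15 copy of 74E2 and 84.9% for UDP-glycosyltransferase 86A1. The median over the other 52 genes called higher at light 200 was 66.8%. These shares were not tested.

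**Figure D2:**
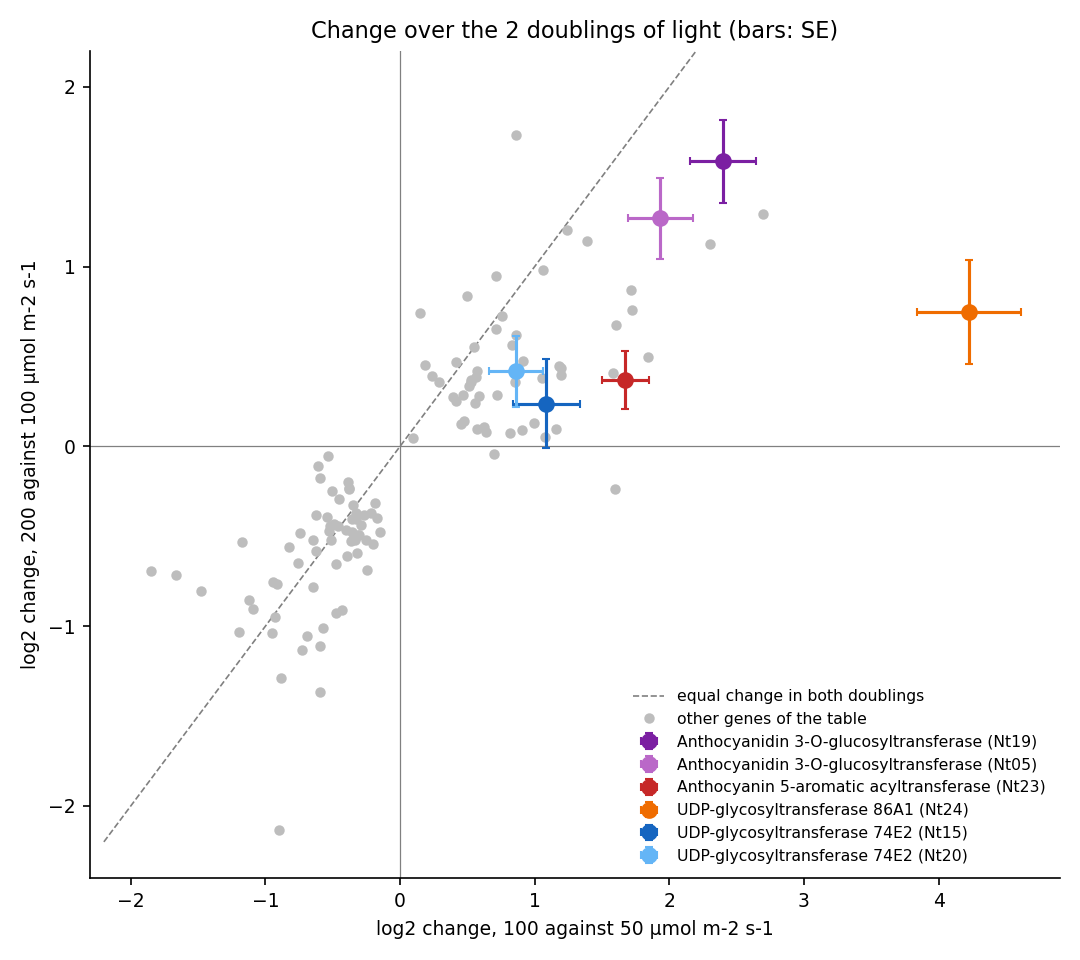
Log2 change of light 200 against 100 (vertical axis) against that of light 100 against 50 (horizontal axis) for all 123 genes, with the 6 genes in colour and bars of 1 SE. All 6 lie right of the dashed line of equal change, as do 85 of all 123 genes with the 6 included. UDP-glycosyltransferase 86A1 lies at 4.22 and 0.75 and the Nt20 copy of 74E2 at 0.86 and 0.42.

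Levels of different genes were compared per length, as the authors' FPKM values (fragments scaled by gene length and library size). At light 50 the Nt15 copy of 74E2 stood first at 121.9 ± 26.6 FPKM (SD, n = 3), and the Nt20 copy followed at 9.58 ± 1.22 FPKM. The Nt19 and Nt05 anthocyanidin glucosyltransferases at 5.97 ± 1.68 and 5.39 ± 0.949 FPKM and the acyltransferase at 5.31 ± 0.20 FPKM overlapped, and UDP-glycosyltransferase 86A1 was last at 1.03 ± 0.359 FPKM. At light 200 the Nt15 copy of 74E2 was still first at 336.8 ± 91.9 FPKM. The Nt19 gene at 104.3 ± 21.4 FPKM and the Nt05 gene at 54.9 ± 6.54 FPKM came next, without overlap between neighbours. UDP-glycosyltransferase 86A1 at 35.5 ± 10.4 FPKM, the Nt20 copy of 74E2 at 25.8 ± 2.93 FPKM and the acyltransferase at 24.3 ± 2.89 FPKM overlapped with their neighbours in this order.

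At light 100 only the most abundant gene had a range over its libraries that was clear of its neighbour. Within each light 100 library, however, the Nt19 glucosyltransferase was above the Nt05 glucosyltransferase. The Nt15 copy of 74E2 had 270.4 ± 69.6 FPKM and the Nt19 glucosyltransferase 32.9 ± 6.67 FPKM. The remaining 4 genes lay between 17.8 and 21.5 FPKM on average, and each overlapped with its neighbour. The share of the Nt15 copy in the summed FPKM of the 6 genes was 79.0%, 81.8% and 83.6% at light 50, 68.4%, 70.9% and 73.2% in the light 100 libraries, and 59.8%, 58.4% and 54.2% at light 200. The sum itself was 149.1 ± 29.0 FPKM at light 50, 380.8 ± 93.3 FPKM at light 100 and 581.7 ± 133.2 FPKM at light 200.

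Ratios between 2 genes of the same library do not depend on how libraries are scaled. The Nt19 gene was higher relative to the Nt05 gene, matched under the same product name, at the higher intensities. The ratio of the Nt19 gene to the Nt05 gene in FPKM was 0.912, 1.07 and 1.33 at light 50, 1.85, 1.40 and 1.45 in the light 100 libraries, and 2.11, 1.83 and 1.73 at light 200. The Nt05 gene was thus the more abundant in 1 light 50 library, and the Nt19 gene in every library of the other groups. The light 200 and light 50 values did not overlap, with means of 1.89 ± 0.201 and 1.11 ± 0.214. A two-sided exact permutation test gave p = 0.1, the smallest that 3 against 3 libraries allow, and 0.136 after adjustment over the 15 ratio comparisons made.

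Relative to the 2 genes matched as anthocyanidin glucosyltransferases, the acyltransferase was lower at each higher intensity. Its FPKM over the summed FPKM of those 2 genes was 0.445, 0.619 and 0.388 at light 50, 0.359, 0.289 and 0.350 in the light 100 libraries, and 0.150, 0.141 and 0.170 at light 200. No groups overlapped, and exact permutation p was 0.1 for each pair of intensities. The mean ratio at light 200 was 0.318 times that at light 50. The sum includes the Nt19 gene, whose transferred sugar the annotations leave uncertain.

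For the 74E2 copies no such separation was seen. The Nt15 copy had 10.3, 13.0 and 14.9 times the FPKM of the Nt20 copy at light 50, 14.2, 15.4 and 14.7 times at light 100, and 14.4, 15.3 and 9.41 times at light 200. These groups overlapped, with an exact permutation p of 0.9 for light 200 against 50, which at 3 libraries a group does not show that the copies respond alike. Against the summed 74E2 copies, UDP-glycosyltransferase 86A1 had 0.00834 ± 0.00396 of their FPKM at light 50, 0.0692 ± 0.00959 at light 100 and 0.0975 ± 0.0111 at light 200, again without overlap.

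**Figure D3:**
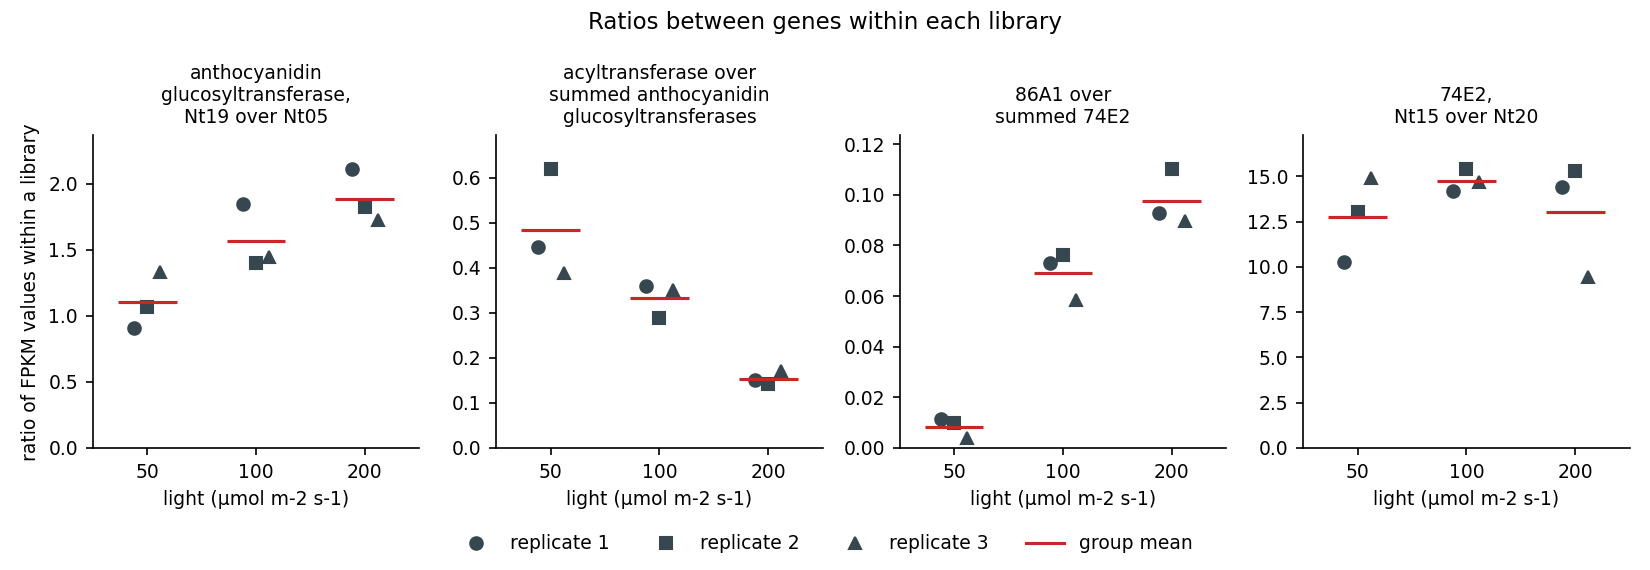
Ratios of FPKM values within each library against light intensity, with 1 point per library and a bar at the group mean. The acyltransferase ratio lies between 0.388 and 0.619 at light 50 and between 0.141 and 0.170 at light 200, while the ratio of the 74E2 copies overlaps between the groups.

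In the light 100 and light 200 groups, 1 library was highest for most of these genes and 1 was lowest. Light 100 replicate 2 was the highest light 100 library for all 6 genes and for 46.2% of the other 117 genes. Light 100 replicate 1 was the lowest for 5 of the 6 and for 43.6% of the others. Light 200 replicate 1 was the highest of its group for 5 of the 6 and for 43.6% of the others. Light 200 replicate 3 was the lowest for 5 of the 6 and for 67.5% of the others. At light 50 replicate 1 was the highest for 3 of the 6 and for 59.8% of the others, and replicate 2 the lowest for 4 and for 41.0%. Replicate 3 of light 50 was the highest for 2 and the lowest for 2, against 26.5% and 42.7% of the others. Median log2 deviations from the group mean were 0.35 for the 6 genes and 0.05 for the other genes in light 100 replicate 2, and -0.31 and -0.14 in light 200 replicate 3. The source of these deviations was not tested, and the values of single genes without each library are given above where they change a call.

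**Figure D4:**
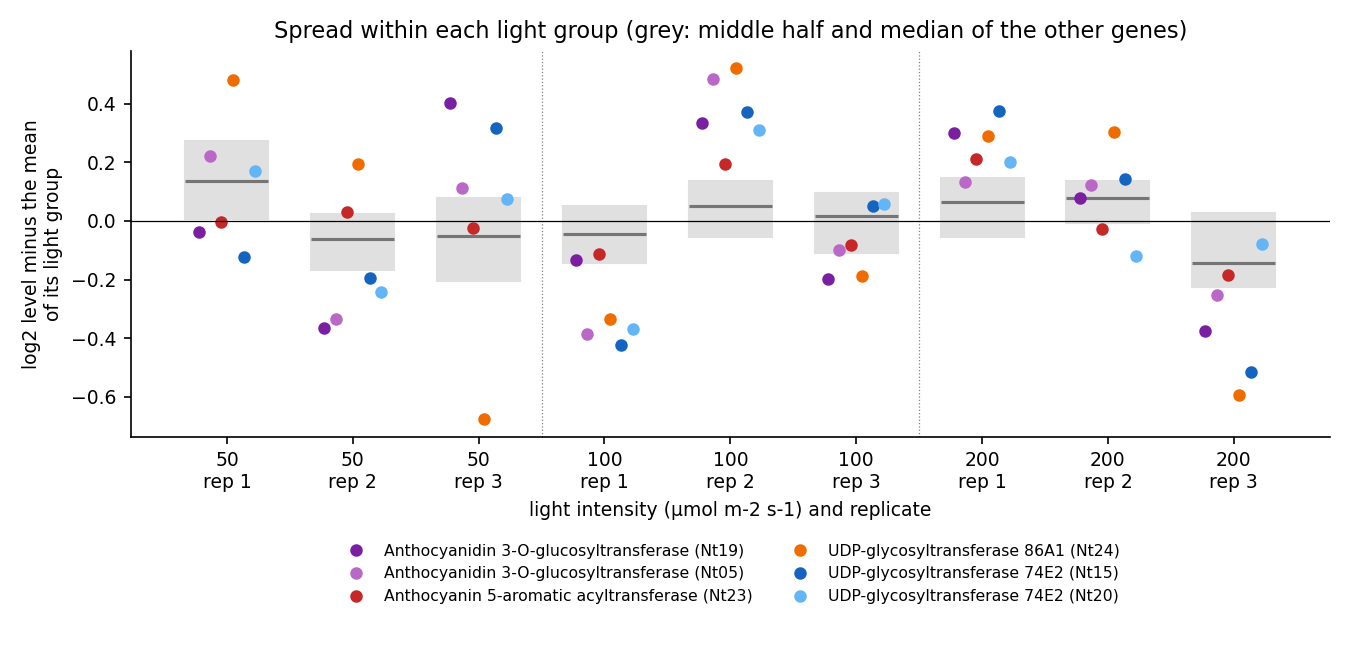
Log2 level in each library minus the mean of its light group, for the 6 genes (coloured points) and, in grey, the median and the range from percentile 25 to 75 of the other 117 genes. In light 100 replicate 2 all 6 points are above 0, and in light 200 replicate 3 all 6 are below 0.

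The enzymes that supply the flavonoid skeleton were read from lists matched by product name. Both phenylalanine ammonia-lyases, which start the phenylpropanoid pathway, and the 4 flavonoid backbone genes in the table were called higher in all 3 comparisons. These were light 200 against 50, light 100 against 50 and light 200 against 100. Of all genes in the table, 47.2%, 42.3% and 21.1% were called higher in these comparisons. Median log2 changes of the entry and backbone genes between light 200 and light 50 were 1.76 and 2.56, against -0.58 for the table. The table held no gene named chalcone synthase, dihydroflavonol 4-reductase or leucoanthocyanidin dioxygenase, so these steps were not measured here. Probable chalcone--flavonone isomerase 3 (Nitab4.5_0000375g0270), an isomerase by product name only, averaged 248.8 ± 29.6 CPM at light 200 and 15.7 ± 5.63 CPM at light 50. Flavonol synthase/flavanone 3-hydroxylase (Nitab4.5_0005357g0020) averaged 466.3 ± 46.8 CPM at light 200 and 77.8 ± 11.8 CPM at light 50. None of these 6 backbone and entry genes had a called step difference, with adjusted p from 0.0763 to 0.956, but with TMM factors 3 of the 4 backbone genes had a called negative one.

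Another UDP-sugar transferase of the table lies outside the text match. Putative UDP-rhamnose:rhamnosyltransferase 1 (Nitab4.5_0000200g0190), named after a strawberry protein, was the 1 gene found by the UDP-sugar supply list, although its name is that of a transferase. It had 182.4 ± 67.0 CPM at light 50, 416.9 ± 106.5 CPM at light 100 and 564.3 ± 165.7 CPM at light 200. Its log2 change was 1.63 ± 0.29 for light 200 against 50 (adjusted p = 0.00019), and 0.44 ± 0.29 for light 200 against 100 (adjusted p = 0.182). The lists of shikimate enzymes, other BAHD acyltransferases and pathway regulators had 0 genes in the table, so they were not measured here.

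Genes of similar pattern were found by the distance between pairs of log2 changes (light 100 against 50 and light 200 against 100) over the 3 group means. For the Nt19 glucosyltransferase the nearest genes were probable chalcone--flavonone isomerase 3 (distance 0.419) and large subunit 1 of glucose-1-phosphate adenylyltransferase (distance 0.472 for Nitab4.5_0000308g0330), which provides the sugar nucleotide used in starch synthesis. For the Nt05 gene they were the same adenylyltransferase subunit (0.395) and flavonol synthase/flavanone 3-hydroxylase (0.454). The acyltransferase lay nearest to aspartate racemase (Nitab4.5_0002257g0010, 0.102) and 1-aminocyclopropane-1-carboxylate oxidase (Nitab4.5_0000091g0420, 0.208), which makes ethylene. The nearest genes to UDP-glycosyltransferase 86A1 were farther off. They were probable chalcone--flavonone isomerase 3 at a distance of 1.62 and the adenylyltransferase subunit named above at 1.96.

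For the Nt15 copy of 74E2 the nearest genes were the GH3.10 amido synthetase (Nitab4.5_0002370g0050, 0.14) and flavone 3'-O-methyltransferase 1 (Nitab4.5_0000725g0060, 0.149). For the Nt20 copy they were the BASS1 cotransporter (Nitab4.5_0000667g0060, 0.0583) and beta-glucosidase BoGH3B (Nitab4.5_0001505g0020, 0.0779). The distances describe these libraries and were not tested.

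The tissue label could be checked only on the genes in the table. The leaf mesophyll list (antenna proteins, photosystem subunits and Rubisco activase) had 17 genes, all detected in every library, with a summed level of 42862 to 51675 CPM at light 50, 34600 to 38733 CPM at light 100 and 22458 to 28198 CPM at light 200. All 17 were called lower at light 200 than at light 50 (16 with TMM factors), against 52% of all genes. This direction is opposite to that of the 6 genes. At light 100 against light 50, 16 of the 17 were called lower, against 40.7% of all genes. With TMM factors 2 were called lower and 1 higher, and with RLE factors 10 were called lower. At light 200 against light 100, 16 of the 17 were called lower, against 39% of all genes, but 4 with RLE factors. The 1 gene on the epidermis list, a non-specific lipid-transfer protein (Nitab4.5_0000125g0030), was also lower at light 200, at 15.9 ± 2.14 CPM, than at light 50, at 51.8 ± 12.9 CPM. The dividing cell list held only a tubulin beta-1 chain (Nitab4.5_0001951g0080), with 32.5 ± 5.02 CPM at light 200 and 106.3 ± 24.5 CPM at light 50. The root list held only berberine bridge enzyme-like 8 (Nitab4.5_0000009g0310), with 5.58 ± 1.78 CPM at light 200 and 0.941 ± 0.359 CPM at light 50, and the glandular trichome list had 0 genes. The part of cell type proportions in the rises of the 6 genes was not tested.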

How the data were processed

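Leaf RNA of 9 libraries was profiled by RNA sequencing, and the labels' protocols name the NEBNext Ultra kit. CASAVA 1.7 is listed together with HISAT and HTSeq, per the submitters' processing notes. The deposited table gives raw read counts per gene and library, per the file headers, and FPKM values made by the authors. It also gives the authors' mean normalised counts per group, their log2 fold changes, as the lower light intensity over the higher, and their p-values and adjusted p-values. All gene lengths are multiples of 3, so they are coding lengths.

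Library totals were recovered from count, FPKM and length, and the authors' size factors from their mean normalised counts (largest relative error 4.98e-10). The factors of the 3 comparisons were combined into 1 set and set effective library sizes. The test was the two-sided quasi-likelihood test (glmQLFit and glmQLFTest) of edgeR 4.0.16 under R 4.3.3, with light group as factor and the 9 libraries in 1 fit. filterByExpr kept all 123 genes. The standard error is the absolute log2 change over the square root of F, and intervals are 95%. Alternatives were TMM, RLE and library totals, DESeq2 1.42.0, 2 other filters on low counts, the 2 compared groups alone, the replicate number as a block, and leaving out each library. The edgeR step was also run on simulated counts with known library sizes, which does not test the scaling or the choice of genes. Each pair of libraries of a group differed by more than sampling noise, with chi-square values of 23.6 to 102.4 per degree of freedom.

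The 6 genes and the gene lists were chosen with earlier results of these data known, and so was the scaling. All 6 genes are named. The 2 nearest genes by pattern are named for each, and at most 3 genes of a list, those of smallest p. Of the table's identifiers, 0 matched the reference gene table, so no sequence is shown.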

Additional observations from a re-analysis of the deposited data

Results flagged for a closer look

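A difference between the 2 doublings of light, by the test of the difference itself, was called for 2 of the 6 genes. UDP-glycosyltransferase 86A1 (Nitab4.5_0003524g0010) had a step difference of -3.48 on the log2 scale, with 8 to 15 reads in the light 50 libraries, and it stayed called under all 16 alternatives, with adjusted p up to 0.0195. The anthocyanin acyltransferase (Nitab4.5_0001256g0060) had a step difference of -1.31, called under 12 of the 16 alternatives, with adjusted p from 0.00362 to 0.144.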

How the results depend on the processing

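None of the 24 gene results (6 genes in 3 comparisons and the step difference) changed direction in the 402 values recomputed under the alternatives, and 385 stayed on their side of the threshold, 8 lost a call and 9 gained one. Of the 6 genes, 6 were called higher under every alternative for light 200 against 50 and for light 100 against 50. For light 200 against 100 the count of 3 was 5 with TMM factors, RLE factors and library totals only, and 2 to 5 when single libraries were left out. For the step difference the count of 2 was 1 with RLE factors and 1 to 2 without single libraries. With the replicate block the counts were 6, 6, 3 and 2, and no call changed. Whether replicate numbers pair the libraries was not settled here, and the main fit used no such pairing. Deviations of same-numbered libraries correlated between -0.443 and 0.55 and exceeded 0.1 in 4 of 9 pairs. Those of differently numbered libraries correlated between -0.556 and 0.468. The log2 changes of single genes moved upward with TMM by a median of 0.43, 0.29 and 0.14 for light 200 against 50, light 100 against 50 and light 200 against 100, and with RLE by 0.29, 0.07 and 0.22. Genes of the table called higher and lower numbered 52 and 50 for light 100 against 50, and 58 and 13 with TMM. For light 200 against 100 they numbered 26 and 48, 43 and 36 with TMM, 45 and 17 with RLE, and with library totals 42 and 42. They numbered 13 and 27 when light 100 replicate 3 was left out and 15 and 31 when light 200 replicate 1 was. Table calls of the step difference numbered 3, with 23 under TMM, 9 under DESeq2, 6 with the block, 5 with library totals and 1 to 14 without single libraries. The cause of these shifts was not tested. UDP-glycosyltransferase 86A1, with as few as 8 reads, is the gene of the 6 most limited by depth.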

Other observations

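Genes named as glycosidases were read from a list matched by product name. The match does not separate enzymes that could act on sugar conjugates from those named for other substrates. The list held 5 genes, and between light 200 and light 50 the test called 4 of them higher and 1 lower, where 47.2% of all genes were called higher and 52% lower, with a median log2 change of 0.73 against -0.58 for the table. One beta-glucosidase BoGH3B (Nitab4.5_0001505g0020) averaged 126.3 ± 11.7 CPM at light 200 and 48.2 ± 2.37 CPM at light 50. Beta-glucosidase-like SFR2 (Nitab4.5_0003135g0010), in Arabidopsis a galactolipid remodelling enzyme of the chloroplast envelope, had 120.2 ± 12 CPM at light 50, 225.6 ± 4.21 CPM at light 100 and 240.1 ± 12.6 CPM at light 200. The member called lower was beta-xylosidase/alpha-L-arabinofuranosidase 2 (Nitab4.5_0003089g0010), named for a cell wall activity, at 97.6 ± 19 CPM at light 200 and 318.3 ± 61.5 CPM at light 50. Whether any of these proteins acts on flavonoid glucosides was not measured. The list for storage in the vacuole held 1 gene, matched by name only, ABC transporter C family member 14 (Nitab4.5_0002469g0080). It was 1.82-fold higher at light 200 than at light 50 (adjusted p = 6.7e-05, edgeR). Its change between light 200 and light 100 was not called in the main fit (adjusted p = 0.0777, edgeR), but was with TMM, RLE or library totals. The place of this protein in the cell and what it transports were not measured.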
